A study of Mus musculus with 10 samples.

Results

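The transcripts of the T cell receptor beta chain constant regions, the CD3 complex and the proximal signaling proteins were followed in lung group 2 innate lymphoid cells (ILC2) that lack the transcription factor c-Maf (c-Maf KO) and in wild-type (WT) ILC2. They comprised 9 genes, selected by symbol out of 54838 gene identifiers: Trbc1 and Trbc2 of the beta chain, Cd3d, Cd3e, Cd3g and Cd247 of the CD3 complex, the kinases Lck and Zap70, and the adaptor Lat. The ILC2 came from lungs inflamed by papain, a protease allergen, and were sequenced as total RNA in 5 KO and 5 WT libraries. All mice were C57BL/6 and cohoused littermates, and both genotypes were given papain, per the design text. The sort took lineage-negative CD90.2+ cells with or without ST2 and KLRG1. How and in which cells Maf was deleted, the age of the mice and the antibodies of the lineage stain are not stated. Libraries were numbered within a genotype as deposited, and no number links a KO library to a WT library. The labels name no separate mouse for a library, and p-values then reflect only how these libraries scatter, which may be technical. The label number of every KO library lies above that of every WT library, so this order and the genotype cannot be told apart.

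In T cells, an alpha-beta or gamma-delta receptor binds antigen but has no signaling tail, and the CD3 chains with CD247 (CD3 zeta) carry the signal inward through tyrosine motifs. Lck phosphorylates these motifs, ZAP-70 docks on them, and ZAP-70 then phosphorylates LAT, the membrane scaffold on which phospholipase C-gamma and the RAS route assemble. ILC2 arise from lymphoid progenitors without needing a rearranged antigen receptor, and constant regions of receptor loci can be transcribed without a rearranged variable segment.

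KO libraries held 3620002 to 9867580 counts and WT libraries 21400938 to 24489987. Of the 7490 genes tested, 18 to 45.4% had more than 3 counts in a KO library, against 96.5 to 99.3% in a WT library, so the absence of a gene from single KO libraries was common. KO library 1 stood apart, with 93.43% of its counts in 100 genes and 18.96% in globin genes. The targeted gene Maf had 0, 0, 0, 108 and 0 counts in KO libraries 1 to 5, against 3252, 3832, 1412, 1696 and 2727 in WT libraries 1 to 5. Of 15 ILC2 markers, 8 had more than 3 counts in every KO library and 15 in every WT library, and Nmur1 was missing from all 5 KO libraries. Their summed level was 4209 to 20590 CPM (TMM-scaled counts per 1e6) in KO and 3677 to 5754 CPM in WT, with 57.3% of the marker counts from Rora and Thy1 in KO and 28.9% in WT. Cytokine markers are given as raw counts, not scaled for the larger WT totals. Il5 had 441 and Il13 4487 over the KO libraries, against 18710 and 172318 over the WT libraries. Areg had 12007 over the KO libraries and 53603 over the WT libraries. In these bulk samples, fewer cells of a type and less RNA per cell cannot be told apart.

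In WT ILC2, 8 of the 9 transcripts were found in every library and the beta chain constant regions were the most abundant of them per kilobase of exon. In KO ILC2, each transcript other than Cd3d was seen in some libraries and missing from others, Cd3d was at 0 in all, and a different set was seen in each library. By edgeR's quasi-likelihood test with Benjamini-Hochberg adjustment over all 7490 genes, 0 of the 8 transcripts tested were lower in KO and 0 were higher, against 27.1% of all tested genes lower and 1.5% higher. Unadjusted, 1 of them (Cd247) had an edgeR p under 0.05. DESeq2 called 0, limma-voom 2 (Trbc2 and Lat) and the exact permutation test 3 (Cd247, Lat and Zap70), all lower in KO. The background was 23.3% of genes lower and 13.5% higher by DESeq2, 33.2% and 0.948% by voom, and 32.2% and 0.975% by the permutation test. All 8 passed the filter on low counts through the WT libraries, since 1 to 3 KO libraries against 5 WT libraries exceeded its level of 0.6396 CPM. The deleted gene Maf was also not called by edgeR (log2 fold change −4.34, SE 2.06, adjusted p = 0.141). A count of 0 calls therefore does not show that these transcripts were unchanged.

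**Figure D1:**
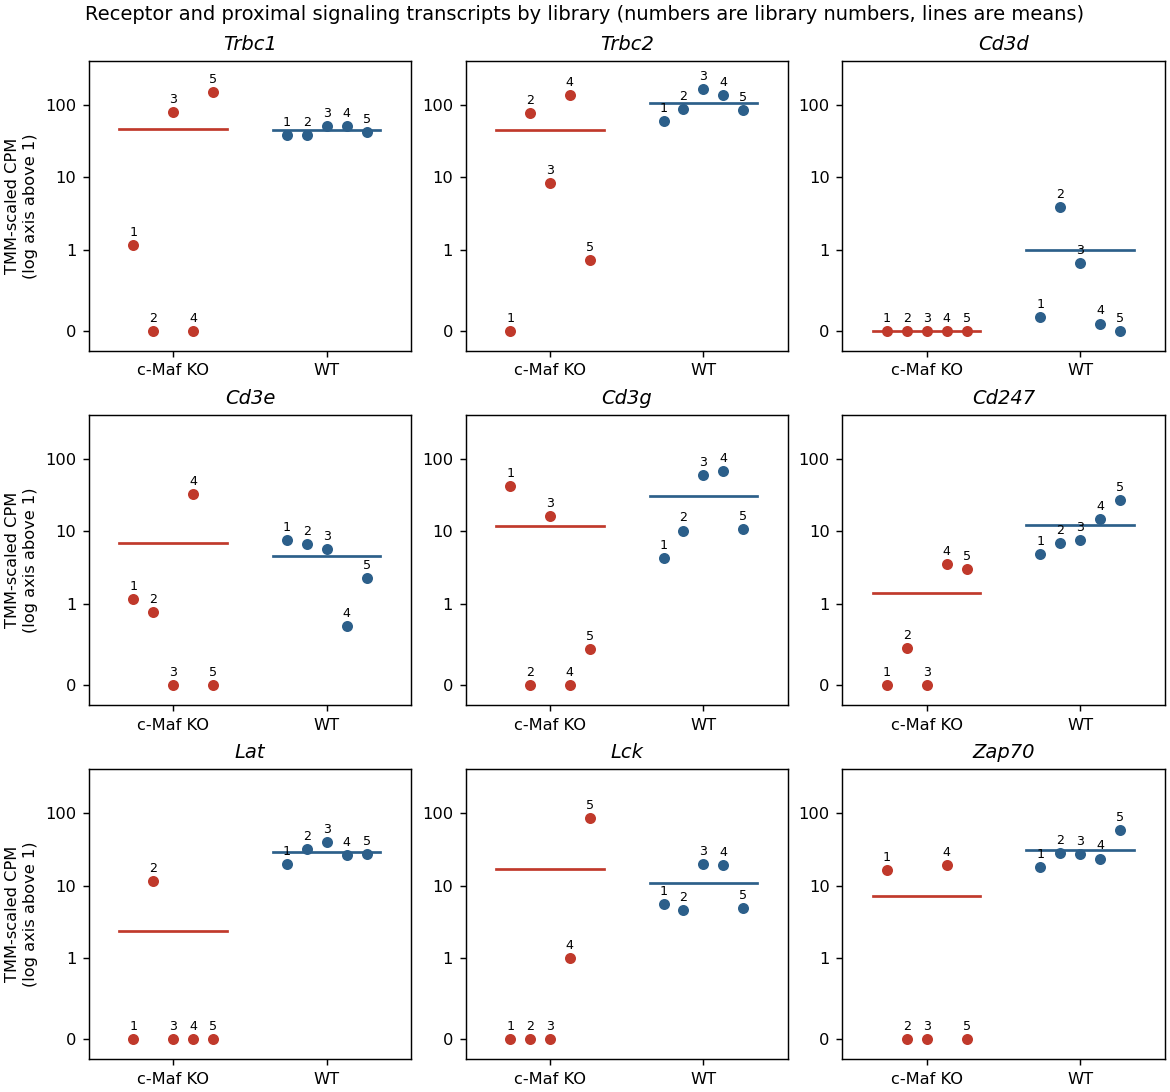
TMM-scaled CPM of the 9 transcripts in each of 5 c-Maf KO (red, left) and 5 WT (blue, right) libraries, on an axis that is linear below 1 and logarithmic above it. Digits are library numbers and lines are group means. WT points sit close together for Trbc1 and Lat, while KO points of every gene include at least 1 library at 0, and those of Cd3d are all at 0.

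Trbc1 (ENSMUSG00000076490, GRCm38 chromosome 6, 41538218 to 41539881, plus strand) and Trbc2 (ENSMUSG00000076498, chromosome 6, 41546730 to 41548352, plus strand) encode the alternative constant regions of the beta chain. Over the 512 bases compared from the first base of the constant region, 24 bases differed, an identity of 95.3%. The first 259 bases were identical, so a read inside them cannot be given to one gene by its sequence. How the authors' counting treated such reads is not stated, and the genes are therefore also given as a sum. The stretch from base 393 to base 512 holds most of the differences (20 of 24), shown in capitals (GENCODE M21 transcripts):
Trbc1: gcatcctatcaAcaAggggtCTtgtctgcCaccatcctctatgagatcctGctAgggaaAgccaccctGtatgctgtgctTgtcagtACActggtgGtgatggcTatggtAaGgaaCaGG
Trbc2: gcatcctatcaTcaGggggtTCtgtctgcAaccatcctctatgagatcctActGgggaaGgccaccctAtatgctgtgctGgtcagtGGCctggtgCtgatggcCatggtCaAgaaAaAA

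Trbc1 had 1, 0, 574, 0 and 346 counts in KO libraries 1 to 5, against 1344, 1721, 1709, 2333 and 1865 counts in WT libraries 1 to 5. It was the steadiest of the 9 transcripts in WT, whose highest library was 1.34 times the lowest (coefficient of variation 14.8%). KO libraries 3 and 5 stood above every WT library, at 78.6 and 152 CPM against 38.5 to 51.6 CPM in WT, and the other 3 KO libraries stood below every WT library. By library size alone, without the TMM factors, KO libraries 3 and 5 lay at 66.3 and 95.6 CPM, within the WT range of 55.8 to 96.7 CPM. Means were 46.3 ± 67.9 CPM in KO and 44.5 ± 6.59 CPM in WT (SD, n = 5 each). The edgeR log2 fold change of 0.06 (SE 1.83, adjusted p = 0.987) was far smaller than its error and turned to −1.11 when libraries were scaled by size alone.

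Trbc2 had 0, 521, 61, 956 and 2 counts in KO libraries 1 to 5, against 2063, 3942, 5455, 6106 and 3684 counts in WT libraries 1 to 5. KO libraries 2 and 4, at 78.2 and 136 CPM, lay within the WT range of 59.1 to 164 CPM, and the other 3 lay below every WT library. By library size alone, KO library 4 at 96.9 CPM was the single KO library within the WT range, which began at 85.7 CPM. Means were 44.7 ± 60.7 CPM in KO and 106 ± 42.4 CPM in WT (SD, n = 5 each). The log2 fold change was −1.24 (SE 1.61, edgeR adjusted p = 0.633). Adjusted p ranged from 0.0241 by voom to 0.634 over the alternatives that kept every library. The sum of both genes was 1.18, 78.2, 87.0, 136 and 152 CPM in KO libraries 1 to 5 and 97.6, 127, 215, 187 and 126 CPM in WT libraries 1 to 5, so that the groups overlapped under TMM scaling. By library size alone they did not overlap, with 0.21 to 96.9 CPM in KO and 142 to 350 CPM in WT. How common such a separation is by library size was not counted.

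The KO libraries held mostly one constant region or the other. Trbc2 gave 100, 9.61, 100 and 0.575% of the summed counts in KO libraries 2 to 5, against 60.6, 69.6, 76.1, 72.4 and 66.4% in WT libraries 1 to 5. KO library 1 had 1 count in all and gives no share. More than 3 counts of both genes were found in 1 KO library and in all 5 WT libraries.

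The joining segments of the same locus had counts in every WT library and in few KO libraries. The Trbj1 segments, upstream of Trbc1, had 0, 0, 0, 0 and 2 counts in KO libraries 1 to 5, against 35, 82, 79, 109 and 94 in WT libraries 1 to 5. The Trbj2 segments, between Trbc1 and Trbc2, had 0, 576, 0, 129 and 1 counts in KO libraries 1 to 5, against 72, 102, 198, 156 and 211 in WT libraries 1 to 5. Among KO libraries, Trbj2 counts above 1 were thus found in libraries 2 and 4, the ones whose beta constant counts were all of Trbc2. KO libraries 3 and 5, which held Trbc1, had 0 and 2 counts of Trbj1 segments. In KO library 2, Trbj2-7 held 355 and Trbj2-6 held 201 of the 576 counts. Trbj2-6 is annotated as a pseudogene, and it lacks the Phe-Gly-X-Gly codons that a joining segment gives to a receptor chain. These codons stand in capitals where a script found them, with the segments placed on GRCm38 (Trbj1-1, with the most Trbj1 counts, chr6:41533864-41533911; Trbj2-6, chr6:41543598-41543645; Trbj2-7, chr6:41543810-41543856; all plus strand):
Trbj1-1: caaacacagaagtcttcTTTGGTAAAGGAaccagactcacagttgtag
Trbj2-6: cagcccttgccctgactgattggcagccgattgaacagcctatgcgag
Trbj2-7: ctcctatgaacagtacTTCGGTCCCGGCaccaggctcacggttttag

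Beta chain variable segments had few counts. Of 35 Trbv rows, 4 had any count, with 0 counts in every KO library and 0, 2, 377, 80 and 0 in WT libraries 1 to 5. Of the 377, 349 were of Trbv13-1. Over all 260 rows of variable, diversity and joining segments, including gamma chain rows that the file names Tcrg-V and Tcrg-J, 32 had counts. Their sums were 0, 798, 44, 131 and 5 in KO libraries 1 to 5 and 229, 363, 916, 691 and 465 in WT libraries 1 to 5. The segments with the most counts were Trgj4, Trbj2-7 and Trbv13-1.

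**Figure D2:**
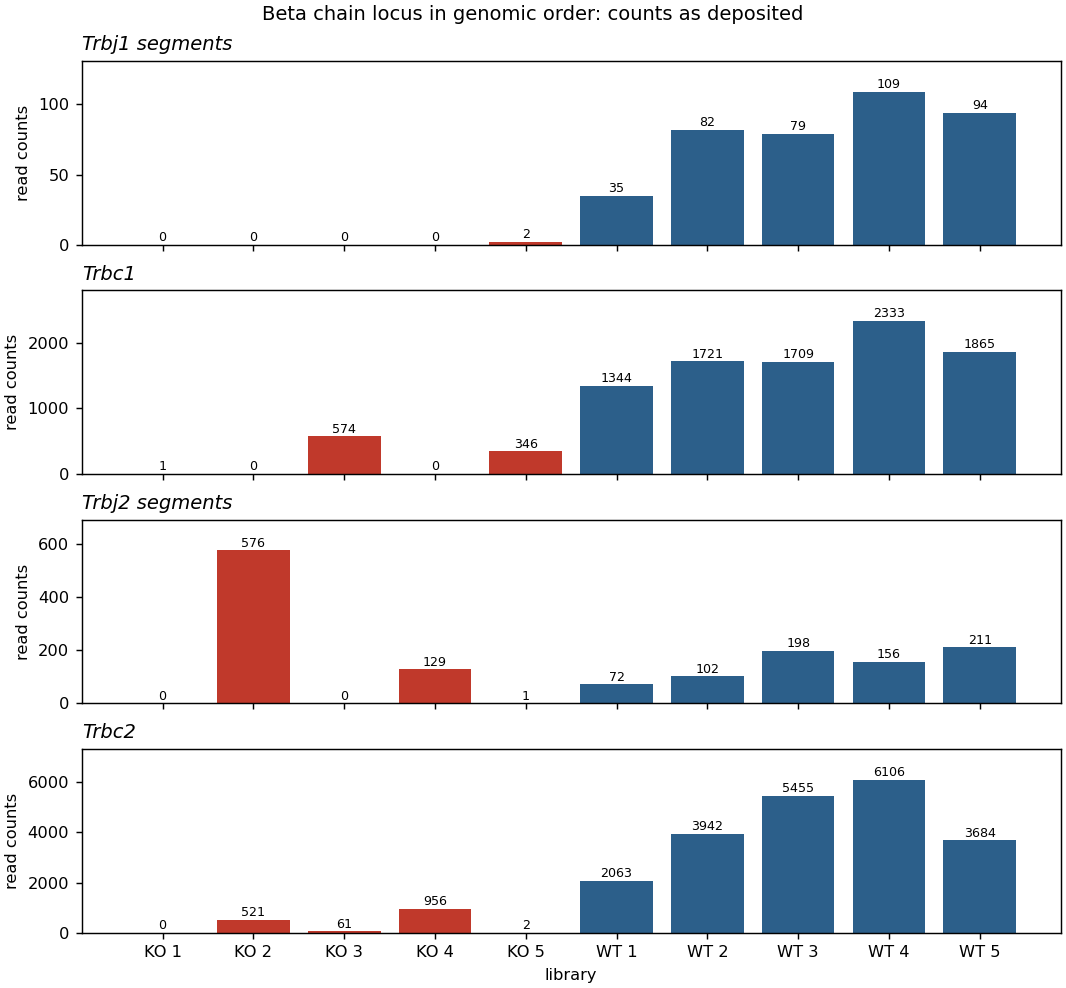
Deposited read counts over the beta chain locus in genomic order, from the Trbj1 segments (top) to Trbc2 (bottom), for 5 c-Maf KO (red) and 5 WT (blue) libraries, each panel on its own linear axis from 0. All 4 parts have counts in every WT library, while among KO libraries Trbc1 counts lie mainly in 3 and 5 and those of the Trbj2 segments and Trbc2 mainly in 2 and 4.

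Cd3d, Cd3e and Cd3g encode the CD3 delta, epsilon and gamma chains and lie side by side on chromosome 9. Cd3g (ENSMUSG00000002033, 44969572 to 44980431, minus strand) had 36, 0, 119, 0 and 1 counts in KO libraries 1 to 5, against 149, 461, 2017, 3077 and 468 counts in WT libraries 1 to 5. KO libraries 1 and 3, at 42.4 and 16.3 CPM, lay within a WT range that was itself 16.0-fold wide, from 4.27 to 68.1 CPM. Its log2 fold change was −1.40 (SE 1.82, edgeR adjusted p = 0.635) and turned to 0.56 under RLE size factors.

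Cd3e (ENSMUSG00000032093, 44998740 to 45009627, minus strand) had 1, 6, 0, 232 and 0 counts in KO libraries 1 to 5, against 270, 304, 190, 33 and 101 counts in WT libraries 1 to 5. KO library 4 alone, at 33.1 CPM, stood above every WT library (0.730 to 7.74 CPM) and held 97.1% of the KO counts. KO libraries 1 and 2 lay just above the lowest WT library and KO libraries 3 and 5 at 0, and by library size alone all 4 were below every WT library. The log2 fold change was 0.62 (SE 1.46, edgeR adjusted p = 0.805), and without KO library 4 it was −3.21 (adjusted p = 0.0888). Of its exon bases, 15.3% lie inside other genes, Gm48719 and Gm48720, and Gm48719 was at 0 in every library.

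Cd3d (ENSMUSG00000032094, 44981786 to 44987339, plus strand) had 0 counts in every KO library, against 6, 175, 28, 4 and 0 counts in WT libraries 1 to 5. WT library 2 thus held 175 of the 213 WT counts. The gene did not pass the filter on low counts and was not tested. Set against 3 counts for the KO libraries combined, the level in KO was at least 8.47-fold lower than in WT, a bound that covers counting error only. Without WT library 2, chosen after seeing the data, the bound was 1.94-fold.

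Cd3e and Cd3g were not seen together in a KO library. More than 3 counts of both Cd3e and Cd3g were found in 0 KO libraries and in all 5 WT libraries. Cd3e alone passed 3 counts in KO libraries 2 and 4, and Cd3g in KO libraries 1 and 3. Of all tested genes, 18 to 45.4% did so in a KO library. How often pairs of genes are seen apart in KO libraries was not counted, here or for Trbc1 with Trbc2 and Lck with Zap70. More than 3 counts of a beta constant gene together with Cd3d, Cd3e or Cd3g were found in 3 KO libraries and in all 5 WT libraries.

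Cd247 (ENSMUSG00000005763, chromosome 1, 165788681 to 165877277, plus strand), the zeta chain with the most tyrosine motifs of the complex, was below every WT library in all 5 KO libraries. It had 0, 3, 0, 25 and 7 counts in KO libraries 1 to 5, against 173, 312, 252, 662 and 1188 counts in WT libraries 1 to 5. Means were 1.42 ± 1.75 CPM in KO and 12.2 ± 9.04 CPM in WT (SD, n = 5 each). Groups that do not overlap in this direction were found for 28.9% of all tested genes. The log2 fold change was −3.06 (SE 1.34, edgeR adjusted p = 0.107). In the exact two-sided permutation test on log2(CPM + 1), p was 0.00794, which is the minimum for 5 against 5. After adjustment over all tested genes it was 0.0267. Adjusted p ranged from 0.0267 to 0.173 over the alternatives that kept every library. Of its exon bases, 67.2% lie inside other genes, among them Pou2f1, whose level was 0, 27.0, 12.6, 0 and 1338 CPM in KO libraries 1 to 5 and 23.8 to 47.8 CPM in WT. The counts of Cd247 are uncertain for that reason.

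Lck (ENSMUSG00000000409, chromosome 4, 129548344 to 129573641, minus strand), the SRC family kinase that starts the cascade, had 0, 0, 0, 7 and 193 counts in KO libraries 1 to 5, against 194, 204, 649, 861 and 216 counts in WT libraries 1 to 5. KO library 5 stood above every WT library, at 84.5 CPM against 4.56 to 19.5 CPM in WT, and the other 4 stood below every WT library. At least 4 KO libraries below every WT library were found for 61.5% of all tested genes. The log2 fold change was 0.67 (SE 1.81, edgeR adjusted p = 0.831), and it turned to −0.63 by library size alone. Library 5 decided it: without that library, chosen after seeing the data, the edgeR log2 fold change was −5.14 (adjusted p = 0.0178). KO library 5 held 96.5% of the KO counts, and Lck passed the filter on low counts through the WT libraries. The value without it is therefore no independent support.

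Zap70 (ENSMUSG00000026117, chromosome 1, 36761798 to 36782818, plus strand), the kinase that binds the phosphorylated motifs, had 14, 0, 0, 135 and 0 counts in KO libraries 1 to 5, against 626, 1270, 909, 1064 and 2555 counts in WT libraries 1 to 5. KO libraries 1 and 4 stood at 16.5 and 19.3 CPM, near the lowest WT libraries, and the WT range was 17.9 to 58.1 CPM, so the groups overlapped by 1 KO library. By library size alone all 5 KO libraries lay below every WT library, and how many of all genes do so under this scaling was not counted. The log2 fold change was −2.13 (SE 1.8, edgeR adjusted p = 0.442). The exact two-sided permutation test gave p = 0.0159 and an adjusted p of 0.0478, at the low end of a range of 0.0478 to 0.835 over the alternatives. More than 3 counts of both Lck and Zap70 were found in 1 KO library and in all 5 WT libraries.

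Lat (ENSMUSG00000030742, chromosome 7, 126363824 to 126369570, minus strand), the membrane scaffold, was seen in 1 of the 5 KO libraries. It had 0, 78, 0, 0 and 0 counts in KO libraries 1 to 5, against 691, 1414, 1337, 1179 and 1194 counts in WT libraries 1 to 5. The KO library with counts stood at 11.7 CPM and the WT libraries at 19.8 to 40.2 CPM, so the groups did not overlap. Every KO library lay below every WT library for 28.9% of all tested genes. After Trbc1 it was the steadiest transcript in WT, with a highest library 2.03 times the lowest. The log2 fold change was −3.58 (SE 1.85), the lowest of the 8 tested, with an edgeR adjusted p of 0.180. The exact two-sided permutation test gave p = 0.00794, the minimum that any separated gene takes, and an adjusted p of 0.0267. Adjusted p ranged from 0.0133 to 0.217 over the alternatives that kept every library. Without KO library 2, chosen after seeing the data, all remaining KO libraries were at 0 and the edgeR adjusted p was 0.00598. Lat passed the filter on low counts through the WT libraries, so it then had to differ. That value is no independent support. Of all tested genes, 51.2% were, like Lat, missing (no more than 3 counts) from 4 or more KO libraries.

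Because Maf is the deleted factor, the 250 bases before the annotated start were searched on both strands for TGCTGA, the half-site of the MAF recognition element. The half-site was found in 2 of the 10 windows of the 7 genes that had one (20%), those of Lat and Cd247, and in 16.1% of 32851 windows of all genes. A match is a description of letters and not a binding site. The window of Lat is shown with its half-site in capitals (RefSeq, GRCm38.p6, chr7:126369569-126369818, minus strand):
Lat: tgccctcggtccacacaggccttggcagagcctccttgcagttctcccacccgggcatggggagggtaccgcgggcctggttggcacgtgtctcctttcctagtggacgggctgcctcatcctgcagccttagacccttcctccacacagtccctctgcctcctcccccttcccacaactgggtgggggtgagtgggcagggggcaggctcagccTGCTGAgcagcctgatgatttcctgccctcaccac

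Per kilobase of exon, the WT order was led by the beta chain constant regions. Trbc2 stood at 64.7 ± 87.8 CPM per kb in KO and 153 ± 61.3 in WT, and Trbc1 at 61.8 ± 90.7 in KO and 59.4 ± 8.80 in WT (SD, n = 5 each). In WT these were followed by Lat at 10.5 ± 2.73, Zap70 at 10.4 ± 5.24, Cd3g at 9.41 ± 9.44, Lck at 3.66 ± 2.67, Cd247 at 2.30 ± 1.70, Cd3e at 1.14 ± 0.737 and Cd3d at 0.552 ± 0.914 CPM per kb. The WT ranges of Trbc2 and Trbc1, and those of Trbc1 and Lat, did not overlap. All other neighbours in this order overlapped in range. Within libraries, Lat lay above Zap70, Cd3g above Lck, Lck above Cd247 and Cd3e above Cd3d in 4 of the 5 WT libraries. Zap70 lay above Cd3g and Cd247 above Cd3e in 3 of the 5. The order of these neighbours thus changed between libraries and was not tested. Lengths are of all exon bases, and 67.2% of those of Cd247 and 15.3% of those of Cd3e lie inside other genes. Reads there may not have been counted, so the places of Cd247 and Cd3e are uncertain. The levels of Trbc1 and Trbc2 depend on how reads of their identical stretch were counted, which is not stated. In KO the same levels were 0.846 ± 1.89 for Lat, 2.39 ± 3.29 for Zap70, 3.61 ± 5.64 for Cd3g, 5.84 ± 12.9 for Lck, 0.266 ± 0.329 for Cd247, 1.72 ± 3.57 for Cd3e and 0 for Cd3d, each with an SD larger than its mean where counts were found. Per kilobase of the whole gene with introns, the first 3 places in WT were the same and Cd247, which has the longest span, took the last.

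**Figure D3:**
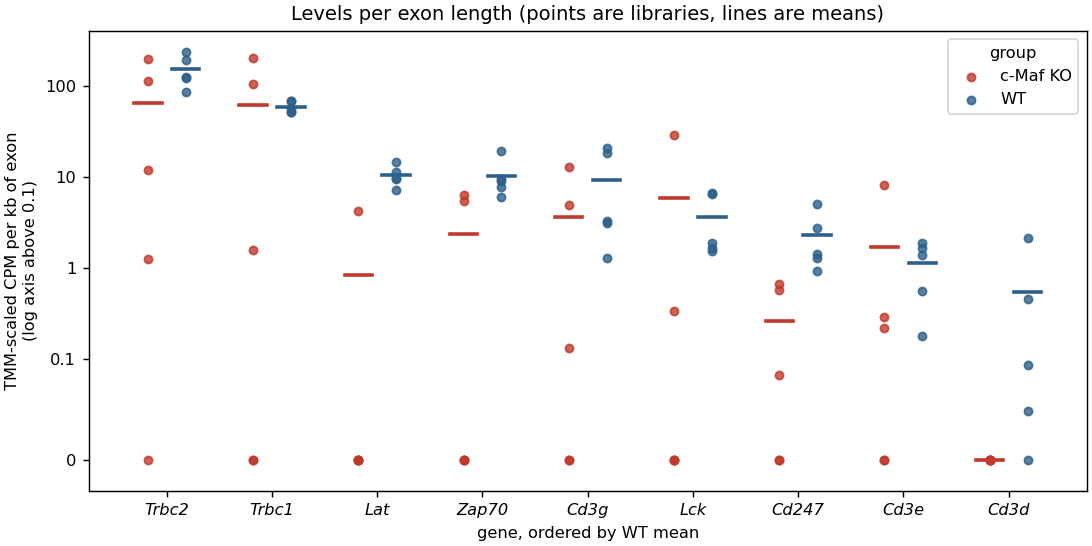
Levels per kilobase of exon of the 9 transcripts in c-Maf KO (red, left of each pair) and WT (blue, right) libraries, ordered by the WT mean, on an axis that is linear below 0.1 and logarithmic above it. Points are libraries and lines are means. Trbc2 and Trbc1 lie above all others in WT, and KO points of every gene include at least 1 library at 0.

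Taken by library, 2, 3, 3, 5 and 3 of the 9 transcripts had more than 3 counts in KO libraries 1 to 5, against 9, 9, 9, 9 and 8 in WT libraries 1 to 5. Of the 8 tested, 7 were missing (no more than 3 counts) from 3 or more KO libraries, as were 70.9% of all tested genes. This share was 88.6% among genes at 10 to 50 CPM by library size in WT and 43% among those at 50 to 250 CPM. Most KO counts of a gene came from 1 library: by counts this was library 2 for Lat, library 3 for Trbc1 and Cd3g, library 4 for Trbc2, Cd3e, Cd247 and Zap70, and library 5 for Lck, with 62.1 to 100% of the KO counts of the gene. Summed over the 9 transcripts, the level was 61.2, 91.2, 103, 193 and 241 CPM in KO libraries 1 to 5 and 158, 219, 377, 339 and 256 CPM in WT libraries 1 to 5. KO libraries 4 and 5 lay within the WT range and the other 3 below it. By library size alone every KO library lay below every WT library, with 10.9 to 152 CPM in KO and 229 to 635 CPM in WT. The share of all genes that separate in this way by library size was not counted. Their median log2 fold change under that scaling was −1.77, so a shift to lower values in KO was general.

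Other transcripts of T cells differed in the libraries that held them. Bcl11b, Cd28, Ubash3a and Trat1 had more than 3 counts in every WT library, while Trac, Cd5 and Themis did not. Trac, the alpha chain constant region, had 0, 0, 0, 0 and 1 counts in KO libraries 1 to 5 and 0, 276, 60, 13 and 0 in WT libraries 1 to 5. WT library 2 thus held most counts of both Trac and Cd3d. Cd8a and Cd8b1 were at 0 in every library, and Cd4 had 1 count, in KO library 5. Foxp3 was also at 0, but its exons lie wholly inside another gene and it may not have been measured. Cd5 had 0, 0, 0, 0 and 1 counts in KO libraries 1 to 5 and 0, 0, 0, 7 and 600 in WT libraries 1 to 5, so that it was high in WT library 5, the library highest for Zap70 and Cd247. Themis had 0, 14, 178, 0 and 1 counts in KO libraries 1 to 5 and 0, 17, 1, 37 and 213 in WT libraries 1 to 5. Of 14 T cell markers outside the 9 transcripts, 4 were seen in KO and 9 in WT, with a summed level of 0 to 714 CPM in KO and 185 to 246 CPM in WT. That list includes Bcl11b, Cd28 and Ubash3a, which ILC2 also express. Their part in the levels above was not tested.

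Of the gamma chain constant regions, nearly all KO counts were of Trgc4. Trgc4 (named Tcrg-C4 in the file) had 0, 1242, 9, 1652 and 2 counts in KO libraries 1 to 5 and 4860, 3256, 4977, 4062 and 3747 in WT libraries 1 to 5. It was highest in KO libraries 2 and 4, the same ones as Trbc2, and its edgeR adjusted p was 0.911. Trgc1 (Tcrg-C1) had 0, 0, 1, 0 and 0 counts in KO libraries 1 to 5 and 1662, 608, 234, 259 and 406 in WT libraries 1 to 5. Trgc2 (Tcrg-C2) had 0 counts in every KO library and 0, 9, 2, 390 and 19 in WT libraries 1 to 5. Trgc1 was lower in KO (edgeR adjusted p = 0.00163), at 0.0274 ± 0.0612 CPM in KO and 16.6 ± 17.6 CPM in WT (SD, n = 5 each).

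Beyond these, 57 genes of the receptor pathway were set beside the 9 transcripts, of which 41 were tested, 3 were lower in KO and 0 higher by edgeR, a share of 7.32% lower against 27.1% of all tested genes. Their median log2 fold change was −0.34, that of the 8 tested transcripts −1.32 and that of all tested genes −0.47. The 3 genes called lower were Trgc1, the membrane adaptor Trat1 and Hcst, which encodes the NKG2D partner DAP10. Trat1 was at 0 in every KO library, against 3.18 ± 2.32 CPM in WT, a difference of at least 24.98-fold (taking 3 counts for the KO libraries combined) with the lower level in KO (adjusted p = 0.00163 by edgeR). Trgc1 and Trat1, with 1 and 0 KO counts, passed the filter on low counts through WT alone, so they had to differ, and their calls are no independent support. For Hcst, KO libraries 1 to 5 held 0, 0, 0, 19 and 2 counts and the WT libraries 269 to 1591. Hcst was thus missing from 4 KO libraries and also reached the test through the WT libraries. Its call is likewise no independent support. Hcst stood at 0.717 ± 1.18 CPM in KO and 15.9 ± 12.97 CPM in WT (log2 fold change −4.36, SE 1.547, edgeR adjusted p = 0.0422).

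Missing from 3 or more KO libraries were 5 of the 11 tested kinases and phosphatases and 4 of the 11 tested genes of the LAT signalosome. Of the 11 kinases and phosphatases, 0 passed, with a median log2 fold change of 0.77. The SRC family kinase Fyn was at 1876 ± 3277 CPM in KO and 101 ± 29.9 in WT (edgeR adjusted p = 0.0830), and the phosphatase Ptprc (CD45) at 595 ± 514 in KO and 603 ± 145 in WT (adjusted p = 0.994). Of the 11 signalosome genes, 0 passed, with a median of 0.94. Here the RAS activator Rasgrp1 was at 1224 ± 2260 CPM in KO and 177 ± 42.5 in WT (edgeR adjusted p = 0.175), Grb2 at 555 ± 736 in KO and 122 ± 34.1 in WT (adjusted p = 0.340), and Skap1 at 506 ± 496 in KO and 293 ± 84.9 in WT (adjusted p = 0.704). Lcp2, which encodes SLP-76, was listed at 0 in every library, and its exons lie wholly inside another gene, as do those of Ptcra, so both may not have been measured.

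Of 9 tested brakes and membrane adaptors 1 passed (Trat1), and of 3 tested coreceptors and costimulatory proteins 0, against 27.1% lower and 1.5% higher among all tested genes. The inhibitory receptor Ctla4 was at 8.67 ± 18.9 CPM in KO and 76.8 ± 30.6 in WT, with an edgeR adjusted p of 0.248. Cd28 was at 28.1 ± 50.7 CPM in KO and 52.4 ± 39.6 in WT (edgeR adjusted p = 0.769), and Cd2 at 2.96 ± 6.396 in KO and 13.4 ± 13.3 in WT (adjusted p = 0.377). Of the ITAM partners that other lymphocytes use, Fcer1g was at 5.29 ± 11.5 CPM in KO and 5.70 ± 6.996 in WT (edgeR adjusted p = 0.946).

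**Figure D4:**
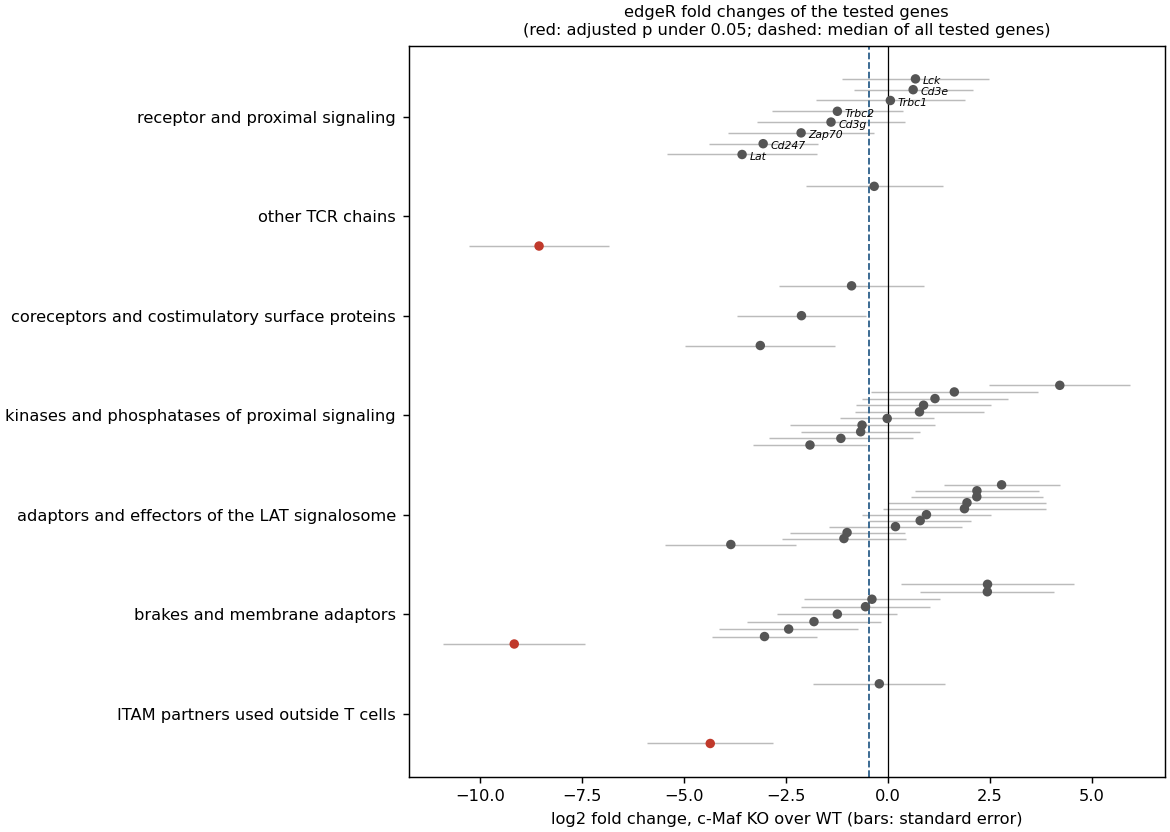
edgeR log2 fold changes, c-Maf KO over WT, of the 8 tested receptor and proximal signaling transcripts (top, named) and of tested pathway genes by list; bars are standard errors, red marks an adjusted p under 0.05 and the dashed line is the median of all tested genes, −0.47. None of the 8 passed, and the values of Trbc1, Cd3e and Lck turn below 0 when libraries are scaled by size alone; the 3 red points are Trgc1, Trat1 and Hcst.

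The genes whose levels over the 10 libraries were most like the mean log2(CPM + 1) of the 8 tested transcripts were Gimap8 (Spearman rho 0.997), Lipa (0.976), Creg1 (0.976), Hsbp1 (0.969) and Lamp2 (0.963), out of 6399 candidates. The libraries share depth and group, and 143 candidates had a rho of at least 0.9. Ranking by Pearson r kept 2 of these 5 genes. Within the 5 WT libraries alone, 123 candidates tied at a rho of 1, so that no 5 could be singled out there.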

How the data were processed

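Total RNA of sorted lung ILC2 was made into libraries with a strand-specific kit, per the labels' protocols. The authors deposited raw counts of reads for each gene in a single table. The submitters' processing notes name build GRCm38 and the tools HTSeq 0.9.1, SAMtools 1.8 and STAR 2.6.0c. No source used here gives the annotation release, strand setting or filters. Of 54838 identifiers, 54809 matched GENCODE M21. Of 690 protein-coding genes lying inside another gene but outside its exons, 98.6% were at 0, against 40.4% of 11791 without overlap, so overlapping genes are uncertain.

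Groups were taken from the genotype labels. edgeR 4.0.16 (R 4.3.3) was run on all libraries with filterByExpr (minimum 10 counts), TMM scaling, the quasi-likelihood test and Benjamini-Hochberg adjustment over 7490 genes at 0.05. CPM are TMM-scaled. TMM factors were 0.1803 to 0.9276 in KO and 1.462 to 1.908 in WT, so the scaling separates the groups. A gene was called missing at 3 counts or fewer. The exact permutation test covered all 252 splits and every tested gene. Intervals and floors cover counting error only.

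Named genes were the 9 transcripts, Maf, in each pathway list every gene that passed or else up to 3 of highest mean CPM, the receptor segments with the most counts (3 by rule), and the 5 genes most like the 9 transcripts by Spearman rho. Trbj2-6, Trbj1-1, Pou2f1, Gm48719 and the markers given by count were named after their values were seen. Trgc2, Trgc4, Fcer1g, Lcp2 and Ptcra are likewise named outside this rule. The members and lists were chosen with earlier results of these data known. A few genes named by that rule are left out of the text and figures. Symbols of the gamma chain rows were matched through RefSeq synonyms. Alternatives were DESeq2 1.42.0, voom (limma 3.58.1), RLE factors, scaling by library size, the permutation test, other filters, thinning, leaving out globin and mitochondrial genes, and leaving out libraries. The procedure was tested on simulated data.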

Additional observations from a re-analysis of the deposited data

Results flagged for a closer look

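In 6 of 20 sets of 5 values (9 transcripts and Maf in each genotype), 1 library lay apart from the other 4 by Dixon's criterion (0.71 for 5 values). Chance passes it in about 1 of 20 groups of normally scattered values. This rate does not hold for sets with 4 libraries at 0 (Lat and Maf in KO), whose ratio is 1 by construction. It is also no guide for Cd3e and Lck in KO, whose other 4 libraries held 0 to 6 and 0 to 7 counts. Of the 6 sets, 4 were in KO and 2 in WT. Cd3e stood at 33.08 CPM in KO library 4 (232 counts), Lck at 84.55 CPM in KO library 5 (193 counts), and Lat at 11.7 CPM in KO library 2 (78 counts), the single KO library with Lat counts. Maf stood at 15.4 CPM in KO library 4 (108 counts), the single KO library with Maf counts. In WT, Zap70 stood at 58.13 CPM in library 5 (2555 counts), and Cd3d at 3.912 CPM in library 2 (175 counts), the library that also held 276 of the Trac counts.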

How the results depend on the processing

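No paired analysis was possible because the library numbers are an order of deposit and pair nothing. Of the 9 transcripts, 0 passed by edgeR with TMM scaling; 1 was lower by library size alone (Cd247), 2 by voom, 3 by the permutation test and 1 (Lck) without KO libraries 1 and 5, and 0 were higher in any alternative. The median of all tested genes moved by 0.56 under RLE size factors, −1.30 by library size alone and −3.11 by voom (log2). Signs turned for Trbc1 to −1.11 by library size alone, −3.75 by voom, −2.56 by the permutation test, −0.30 without a filter, −0.13 at a mean of at least 5 CPM and −0.82 without KO libraries 1 and 5; for Cd3e to −0.61, −1.88 and −0.84 under the first 3 of these; for Lck to −0.63, −3.38 and −1.80 under the same and −5.03 without KO libraries 1 and 5 (adjusted p = 0.0395); and for Cd3g to 0.56 under RLE size factors and 0.47 by DESeq2. The cause was not tested.

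Of the 57 pathway genes, edgeR with TMM scaling called 3 lower and 0 higher. The lower count was 5 by library size alone, by DESeq2 and without a filter, 10 by voom, 7 by the permutation test and 1 at a mean of at least 5 CPM; the higher count was 3 by DESeq2 and 4 without KO libraries 1 and 5. Among all genes, 2027 lower and 112 higher (94.8% lower) became 193 higher under RLE size factors, 49 by library size alone, 71 by voom and 73 by the permutation test. They became 2611 lower and 1512 higher by DESeq2 (63.3% lower), 3024 and 2345 without a filter (56.3%), 1655 and 648 at a mean of at least 5 CPM (71.9%), 3291 and 348 without KO libraries 1 and 5, and 1291 and 55 when libraries were thinned to the smallest total. At exactly 0 counts, 4 rather than 8 transcripts were missing from at least 3 KO libraries.

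Leaving out each library in turn gave 0 to 1 transcripts lower, 2 to 11 pathway genes lower and 0 to 2 higher, and 1734 to 3350 genes lower and 82 to 333 higher. The 1 transcript was Lat without KO library 2 and Lck without KO library 5. KO library 2 held 100% of the KO counts of Lat, and KO library 5 held 96.5% of those of Lck. These calls are therefore no independent support, and the same holds for the Lck call without KO libraries 1 and 5. Signs turned for Trbc1 (−1.13 without KO library 5, −0.02 without WT library 1, −0.03 without WT library 2, within a range of −1.13 to 0.66), Cd3e (−3.21 without KO library 4, range −3.21 to 0.95) and Lck (−5.14 without KO library 5, range −5.14 to 1.44). Thinning to the smallest total left 0 transcripts called. Without WT library 2 the bound on Cd3d was 1.94-fold, against 8.47-fold.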
